A study of Homo sapiens with 4 samples.

Results

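Ribosome footprints on the genes that fold, check and clear proteins of the endoplasmic reticulum were followed in the established human embryonic kidney line HEK293. Ribo-seq sequences the mRNA pieces that ribosomes cover. The deposited value of a transcript is its RPKM, its reads scaled to its coding length and to the size of the library. A fixed list of 36 symbols chose the genes, and 36 of 36 were found among the 16292 listed transcripts, with 1 transcript each. The 4 groups were RPL4 mutant cells with erythromycin, RPL4 mutant cells without it, wild type cells with erythromycin and wild type cells without it, at 1 library a group. RPL4 is a large-subunit protein that lines the tunnel through which the new protein leaves the ribosome. Erythromycin is an antibiotic known to sit in that tunnel in bacteria. The treatment text of the labels describes stable lines carrying GFP, intact RPL4 or a loop-deleted RPL4, each also given a hairpin RNA that targets RPL4 or a scrambled hairpin. It does not say which of these lines gave which library, what drives the transgene, or whether a line is 1 clone. The extraction text names cycloheximide and lactimidomycin, arrest agents for elongating and initiating ribosomes, without tying either to a library, and has cells of 4 dishes profiled, and no dose of erythromycin is given.

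As background, proteins that enter the secretory pathway fold in the endoplasmic reticulum with the help of Hsp70 and Hsp90 chaperones, of lectins that bind their sugars, and of isomerases that form disulfide bonds. When unfolded protein builds up, the sensors IRE1 (gene ERN1), PERK (EIF2AK3) and ATF6 start the unfolded protein response. IRE1 cuts a short intron out of XBP1 mRNA so that an active transcription factor is made, ATF6 is cleaved into another, and PERK phosphorylates the initiation factor eIF2 alpha. Both transcription factors act on genes for chaperones and for the degradation machinery, which returns misfolded proteins to the cytosol for the proteasome.

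The DNA element through which ATF6 and XBP1 are known to act is the endoplasmic reticulum stress element, ERSE, which has CCAAT and CCACG with any 9 bases between them, and a shorter form, ERSE-II, with ATTGG and CCACG 1 base apart. Both were searched on both strands of RefSeq promoter windows (GRCh38.p14) that hold 250 bases before and 50 after each annotated start. Windows were matched for 34 of the 36 genes, PDIA3 and DERL1 being the others. An exact ERSE was found for 7 of these 34 genes (20.6%), against 25 of 27305 genes in the whole table (0.0916%). ERSE-II was found for 3 of 34 (8.82%), against 19 of 27305 (0.0696%), and the 2 motifs shared no gene here. The list was drawn up as genes of this response, so shares above those of all genes were built in and are no test. These elements are shown because the genes that carry them are set apart in the responses below. A match is a description of letters, not of binding. The PDIA6 window (chr2:10812736-10813035) lies within the span of its listed transcript (chr2:10783393-10832485, minus strand). It thus belongs to another annotated start than that of the transcript whose footprints are given. The ERSE matches follow in the direction of transcription with 15 bases on each side, with the 19 matched bases in capitals (read on the opposite strand in CALR, CRELD2 and the second HSP90B1 match).
CALR (chr19:12938369-12938417, plus strand): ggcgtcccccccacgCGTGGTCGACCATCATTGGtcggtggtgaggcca
CANX (chr5:179698763-179698811, plus strand): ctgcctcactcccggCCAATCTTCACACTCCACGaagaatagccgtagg
CRELD2 (chr22:49918539-49918587, plus strand): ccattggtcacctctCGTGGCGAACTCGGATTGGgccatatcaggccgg
HSP90B1 (chr12:103930201-103930249, plus strand): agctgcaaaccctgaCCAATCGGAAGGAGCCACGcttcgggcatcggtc
HSP90B1 (chr12:103930306-103930354, plus strand): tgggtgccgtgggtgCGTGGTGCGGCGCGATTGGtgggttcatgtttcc
HSPA5 (chr9:125241376-125241424, minus strand): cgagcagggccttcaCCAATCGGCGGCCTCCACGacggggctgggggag
PDIA6 (chr2:10812838-10812886, minus strand): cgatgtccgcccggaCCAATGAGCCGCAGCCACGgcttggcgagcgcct
XBP1 (chr22:28800588-28800636, minus strand): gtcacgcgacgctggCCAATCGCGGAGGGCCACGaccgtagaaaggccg
The ERSE-II matches are given alike, with the matched 11 bases in capitals (read on the opposite strand in HYOU1 and SDF2L1).
HERPUD1 (chr16:56932010-56932050, plus strand): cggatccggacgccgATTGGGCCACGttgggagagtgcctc
HYOU1 (chr11:119057365-119057405, minus strand): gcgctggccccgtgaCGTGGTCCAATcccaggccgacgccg
HYOU1 (chr11:119057259-119057299, minus strand): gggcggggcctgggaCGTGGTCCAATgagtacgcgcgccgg
SDF2L1 (chr22:21642099-21642139, plus strand): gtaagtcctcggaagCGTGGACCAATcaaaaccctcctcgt
The HSPA5 window is also shown whole (chr9:125241294-125241593, minus strand), with its exact ERSE in capitals, as the best-known target of the response.
HSPA5 promoter: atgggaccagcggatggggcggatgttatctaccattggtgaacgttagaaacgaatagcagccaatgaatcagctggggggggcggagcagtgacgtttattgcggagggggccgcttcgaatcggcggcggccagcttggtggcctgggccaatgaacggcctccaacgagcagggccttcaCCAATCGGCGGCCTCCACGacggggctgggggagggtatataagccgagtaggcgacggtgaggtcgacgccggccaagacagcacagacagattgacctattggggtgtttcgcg

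XBP1 carries the other sequence on which the pathway turns. The 1 transcript listed for it has a coding length of 1131 bases, that of the form without the intron cut out by IRE1, whereas the uncut form has 786. The intron of 26 bases lies at chr22:28796124-28796149 (GRCh38, minus strand) and is given in capitals between 10 bases of mRNA on each side, as placed in GENCODE 29. Footprints upstream of it are shared by the forms, so the values of XBP1 below are for the gene and do not measure cutting.
XBP1 intron: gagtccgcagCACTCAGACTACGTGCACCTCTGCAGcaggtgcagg

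Reads were recovered from RPKM and coding length, and the library totals were 993461 in the mutant with erythromycin and 604506 without it, and 2555613 in wild type with erythromycin and 2965243 without it. The genes of interest had medians of 54 and 32 reads in the mutant libraries, against 155.5 and 163 in the wild type, in the same order of treatments. In the mutant without erythromycin 25 of the 36 had fewer than 50 reads. RPL4 itself was at 1439 and 1707 RPKM in the mutant with and without the drug, against 2586 and 2515 in the wild type, and a transgene copy would be counted as RPL4. Of 8 markers known for HEK293, 7 or 8 were above 0 in each library, with VIM, KRT8 and KRT18 the highest. Their summed RPKM was 1191 and 1421 in the mutant with and without erythromycin, against 2003 and 1740 in the wild type. These sums, like the gene list below, were lower with the drug in the mutant and higher with it in wild type; their part in the results was not tested. Of 9 markers of other cells, 2 to 4 were above 0 (summed RPKM 4.74 to 13.9), and PTPRC, COL1A2, JCHAIN and INS were at 0 throughout. Among the HEK293 markers NEFM (0 to 0.732) and PAX2 (1.61 to 2.69) were also low, below COL1A1 of the other cells (3.89 to 6.68). In the mutant with erythromycin AMY2A (8.52) stood above LHX1 (7.42). A value above 0 is thus weak support for a cell type.

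The 36 genes spanned a 223-fold range of mean footprint level. CALR, the soluble lectin chaperone calreticulin, stood highest at a mean of 554 RPKM over the 4 libraries, followed by the proline isomerase PPIB (421), the disulfide isomerase P4HB (354) and the membrane lectin CANX (266). The sensor ERN1 stood lowest at 2.49 RPKM, and EIF2AK3 (11.9) and WFS1 (12.4) were also low, whereas ATF6 was at 23.1. The median gene of the list was at 44.4 RPKM, against 25.8 for the 9612 genes averaging 5 RPKM or more over the 4 libraries, and 24 of the 36 lay above the latter value. The 9612 genes are called tested genes below, and 35 of the 36 are among them, all but ERN1. For none of the 35 did passing rest on its highest library alone.

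**Figure D1:**
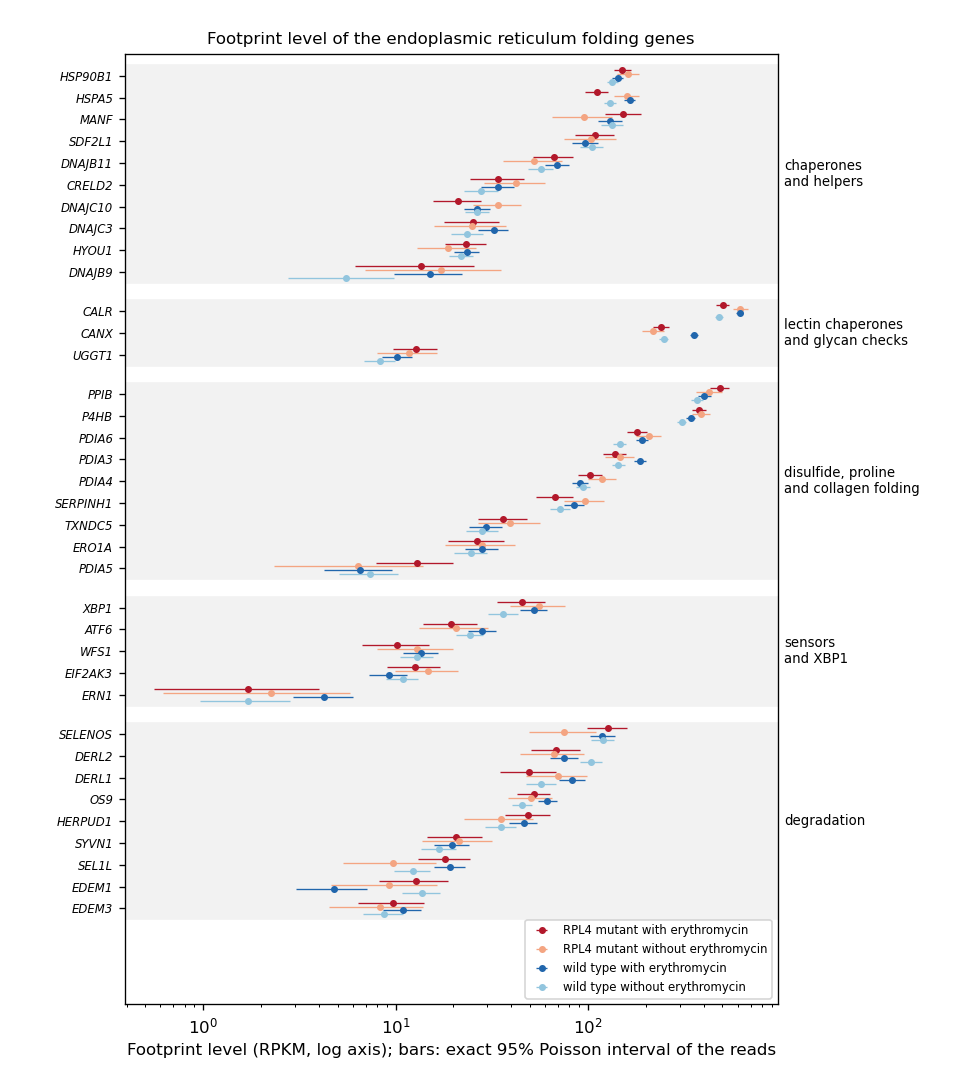
Footprint level of each of the 36 genes in RPKM (log axis) in the 4 libraries, by role, with exact 95% Poisson intervals of the reads. Levels run from the sensor ERN1 (mean 2.49) to CALR (mean 554), and CANX in wild type with erythromycin (357) lies apart from the other 3 libraries (218 to 248).

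Together the 36 genes took a slightly larger share of footprints with erythromycin than without it in wild type cells, and not in the mutant. Their share was 0.452% (95% Wilson interval 0.439% to 0.465%) in the mutant with erythromycin and 0.477% (0.46% to 0.495%) without it. In wild type it was 0.497% (0.488% to 0.506%) with erythromycin and 0.417% (0.41% to 0.424%) without it. The 2 wild type intervals do not overlap, those of the mutant do, and wild type without erythromycin lies below the other 3 libraries. Overlap does not show that the mutant shares are equal. The log2 ratio of summed RPKM with the drug over without it, centred on the median tested gene, was −0.09 [−0.16, −0.01] in the mutant. In wild type it was 0.24 [0.20, 0.28]. Without CALR, the highest gene, these ratios were −0.03 and 0.22. Intervals here and below cover counting error only; with no replicate, spread between cultures is not in them.

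**Figure D2:**
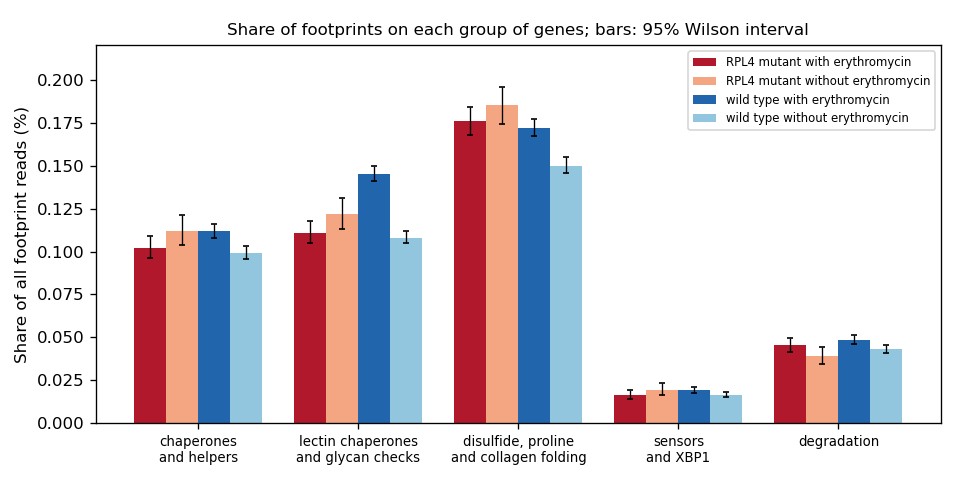
Share of all footprint reads, in percent, on each role group of the 36 genes in the 4 libraries, with 95% Wilson intervals. The lectin group (CALR, CANX, UGGT1) takes 0.111% and 0.122% in the mutant with and without erythromycin, against 0.145% and 0.108% in the wild type.

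The lectin group had the clearest gap, at 0.145% (0.141% to 0.15%) in wild type with erythromycin and 0.108% (0.105% to 0.112%) without it. Its share was 0.111% (0.105% to 0.118%) in the mutant with erythromycin and 0.122% (0.113% to 0.131%) without it. The sensor group took at most 0.0195% in any library, and the degradation group between 0.039% and 0.0485%. Footprints follow both mRNA level and translation, which were not separated, and in a bulk library fewer cells making a protein cannot be told apart from less of it per cell.

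The comparison of cells with and without erythromycin asked how the drug moved these genes in each genotype. In wild type cells most of them were higher with the drug by a small amount, while in the mutant more were lower than higher. Ratios are log2 ratios of RPKM plus 1, centred on the median of the tested genes, followed in brackets by the 95% counting interval of the ratio of reads without the added 1. Erythromycin over none gave a median of −0.10 over the 35 genes in the mutant and 0.22 in wild type, where the median of all tested genes is 0 by centring. In the mutant 13 of 35 were above 0 (37.1%, against 50.0% of tested genes) and 22 below. In wild type 28 of 35 were above 0 (80.0%, against 50.0%) and 7 below.

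Few of the shifts were large. In the mutant 4 genes were at least 1.5-fold higher with the drug (11.4%, against 15.4% of tested genes) and 1 was at least 1.5-fold lower (2.86%, against 10.7%). In wild type 2 were at least 1.5-fold higher (5.71%, against 6.29%) and 1 lower (2.86%, against 6.52%). These shares are near or below those of all tested genes, so passing 1.5-fold does not mark the list. Counting intervals, over genes with recovered reads, lay wholly above 0 for 2 of 35 in the mutant (5.71%, against 7.21% of tested genes) and wholly below for 4 (11.4%, against 7.69%). In wild type they lay above 0 for 15 of 35 (42.9%, against 14.2%) and below for 2 (5.71%, against 13.9%). The list has more reads per gene than the median tested gene, which narrows its intervals, and no test of its difference from other genes was made.

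Among the Hsp70 and Hsp90 chaperones and their helpers, HSPA5 had ratios on opposite sides of 0 in the genotypes, while most of the others lay within counting error of 0 in at least 1 genotype. HSPA5 (BiP, the Hsp70 of the endoplasmic reticulum, chr9:125234853-125241330, GRCh38) was at 111 RPKM in the mutant with erythromycin and 159 without it, against 165 in wild type with the drug and 131 without it. Its level with the drug was thus the lowest of the 4 libraries in the mutant and the highest in wild type. Erythromycin over none was −0.57 [−0.86, −0.28] in the mutant and 0.35 [0.20, 0.49] in wild type, on 217 and 189 reads and on 827 and 762. HSP90B1 (GRP94, the Hsp90 of this compartment) was at 151 and 162 RPKM in the mutant with and without the drug, against 143 and 134 in the wild type. Its ratios were −0.15 [−0.39, 0.09] and 0.11 [−0.03, 0.24], both within counting error of 0.

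The J-domain partners of HSPA5 did not share 1 pattern. DNAJB9 (ERdj4, which also restrains IRE1) had 13.5 and 17.2 RPKM in the mutant with and without erythromycin, against 15.1 and 5.52 in the wild type, where the reads were 26 and 11. Wild type without the drug was the low library, and the ratio there was 1.32 [0.40, 2.64], against −0.39 [−2.0, 1.25] in the mutant. DNAJC3 (p58IPK, an inhibitor of PERK) had a ratio of −0.05 [−0.83, 0.77] in the mutant and 0.45 [0.08, 0.85] in wild type. DNAJB11 (ERdj3) was alike in both genotypes, at 0.29 and 0.30. DNAJC10 (ERdj5, a reductase) was at 21.1 and 34.0 RPKM in the mutant with and without the drug and at 26.6 in both wild type libraries, so that only the mutant ratio, −0.72 [−1.34, −0.14], had an interval off 0.

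Among the other helpers, MANF, a small stress-induced protein that binds HSPA5, ran the opposite way to HSPA5 in the mutant only. It was at 153 and 94.9 RPKM in the mutant with and without erythromycin (0.63 [0.04, 1.27]), against 131 and 134 in the wild type (−0.02 [−0.31, 0.27]). The mutant without the drug was the low library. CRELD2, another stress-induced protein of the lumen, had ratios of −0.36 [−1.07, 0.36] in the mutant and 0.29 [−0.11, 0.71] in wild type. HYOU1, the nucleotide exchange partner of HSPA5 (0.24 and 0.11), and SDF2L1, which supports the HSPA5 cycle (0.01 and −0.10), stayed within counting error of 0 in both.

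CALR had the most reads of the list, and CANX was also well read. CALR (chr19:12938607-12944489) was at 502 RPKM in the mutant with erythromycin and 620 without it, against 614 in wild type with the drug and 480.3 without it. As for HSPA5, the drug ratios had opposite signs, at −0.36 [−0.53, −0.18] in the mutant and 0.37 [0.28, 0.46] in wild type. Unlike for HSPA5, both drug libraries lay between the untreated ones. CANX was at 239 and 218 RPKM in the mutant with and without the drug, against 357 and 248 in the wild type. Its wild type library with erythromycin stood above the other 3, with a ratio of 0.54 [0.43, 0.65], against 0.08 [−0.15, 0.32] in the mutant. UGGT1, which puts a glucose back on misfolded glycoproteins so that the lectins rebind them, was at 0.06 [−0.57, 0.73] and 0.29 [−0.06, 0.70].

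Disulfide isomerases were higher with erythromycin in wild type for the well-read members and near 0 or lower in the mutant. PDIA6 was at 180.4 and 207 RPKM in the mutant with and without the drug (−0.25 [−0.53, 0.03]), against 191 and 146 in the wild type (0.40 [0.25, 0.56]). PDIA3 (ERp57, the partner of the lectins) was at 138 and 146 RPKM in the mutant (−0.13 [−0.46, 0.19]), against 186 and 144 in the wild type (0.38 [0.23, 0.54]). P4HB, the main disulfide isomerase, had smaller ratios of −0.08 [−0.27, 0.12] and 0.17 [0.06, 0.28]. PDIA4 did not share this, at −0.25 [−0.57, 0.07] and −0.04 [−0.22, 0.14]. PDIA5 rested on 20 and 6 reads in the mutant (0.86 [−0.40, 2.57]) and was at −0.14 in wild type. The isomerase TXNDC5 (−0.17 and 0.07) and ERO1A, the oxidase that recharges P4HB (−0.14 and 0.19), lay within counting error of 0.

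SERPINH1 (HSP47, the collagen chaperone, chr11:75562370-75572782) was the third gene whose intervals lay on opposite sides of 0. How many of all tested genes had such intervals was not counted. It was at 67.3 RPKM in the mutant with erythromycin and 96.1 without it, against 85.0 in wild type with the drug and 71.9 without it. The ratios were −0.56 [−1.04, −0.09] in the mutant and 0.25 [0.01, 0.50] in wild type. PPIB (cyclophilin B, which isomerises prolines) was at 484 and 427 RPKM in the mutant, against 402 and 370.4 in the wild type, and its ratio was 0.13 in both genotypes.

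**Figure D3:**
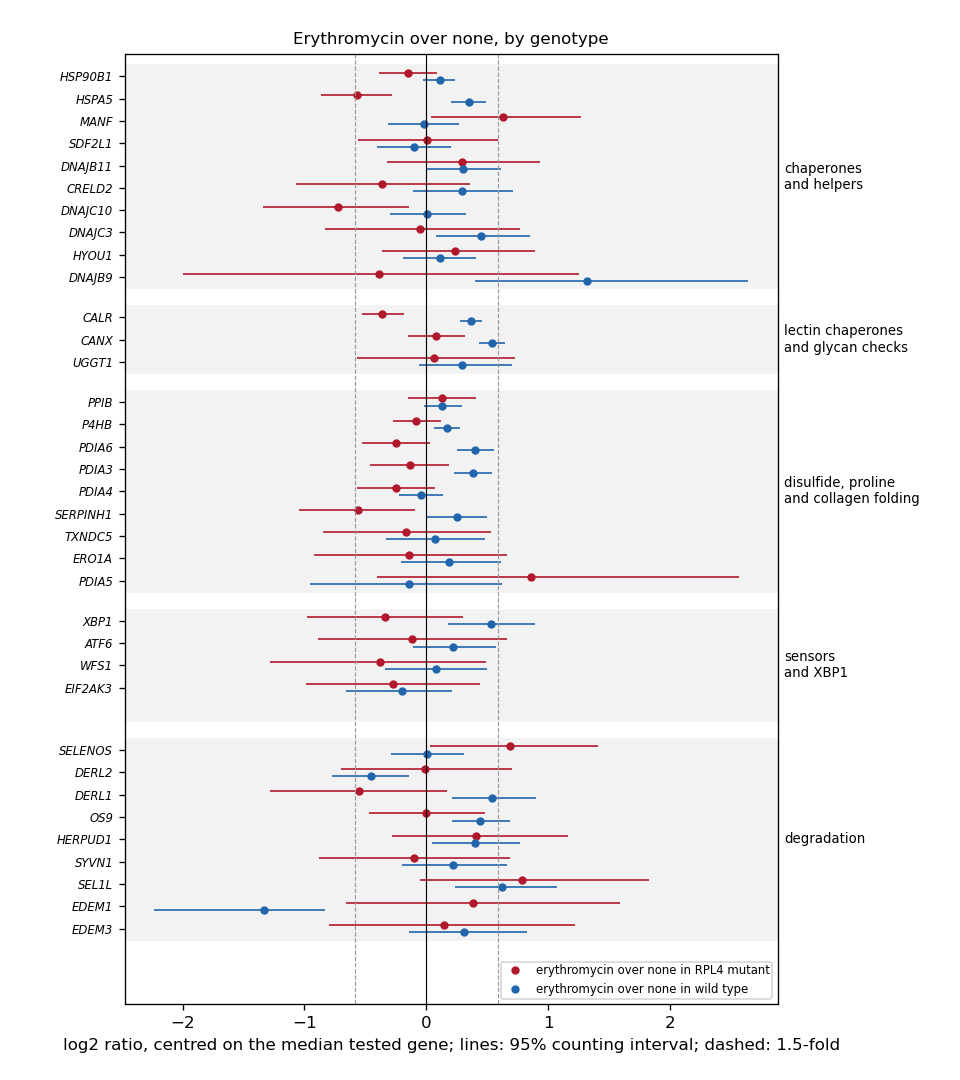
Log2 ratio of erythromycin over none for the 35 tested genes, by role, in the mutant (red) and wild type (blue), with 95% counting intervals and dashed lines at 1.5-fold. HSPA5, CALR and SERPINH1 have the mutant interval below 0 and the wild type interval above 0, and EDEM1 lies far below 0 in wild type at −1.33.

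Of the sensors, none had a counting interval off 0 in the mutant. The transcript of XBP1 (chr22:28794560-28800572) was at 45.4 and 55.6 RPKM in the mutant with and without erythromycin, against 52.2 and 36.4 in the wild type, which without the drug was the lowest of the 4. Its ratios were −0.34 [−0.98, 0.30] in the mutant and 0.53 [0.18, 0.89] in wild type. ATF6 (−0.12 and 0.22), EIF2AK3 (−0.27 and −0.20) and WFS1, a membrane protein that restrains ATF6 signalling (−0.38 and 0.08), stayed within counting error of 0. ERN1, below the level for testing, had 5 and 4 reads in the mutant with and without the drug and 32 and 15 in wild type.

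The degradation genes were mixed, and the largest ratio by size, just past that of DNAJB9, was among them. EDEM1, a lectin that takes misfolded glycoproteins out of the folding cycle (chr3:5187673-5219957), was at 12.7 and 9.22 RPKM in the mutant with and without erythromycin, against 4.76 and 13.7 in the wild type. Its reads were 25 and 11 in the mutant and 24 and 80 in wild type. The ratio was 0.38 [−0.66, 1.59] in the mutant and −1.33 [−2.23, −0.83] in wild type, where the drug library was the low one. EDEM3, a relative that trims mannose, was at 0.15 and 0.31, within counting error. SEL1L, the scaffold of the ubiquitin ligase SYVN1, was higher with the drug in both genotypes, at 18.1 and 9.71 RPKM in the mutant (0.79 [−0.05, 1.83]) and 19.2 and 12.3 in wild type (0.62 [0.24, 1.07]). SYVN1 itself was at −0.10 and 0.22.

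The derlins, which help misfolded proteins across the membrane, went apart. DERL1 was at 49.3 and 70.0 RPKM in the mutant with and without the drug (−0.55 [−1.28, 0.17]), against 82.8 and 57.1 in the wild type (0.54 [0.21, 0.90]). DERL2 was at 68.5 and 66.6 RPKM in the mutant (−0.01 [−0.70, 0.70]), against 75.5 and 104 in the wild type (−0.45 [−0.77, −0.14]). The wild type ratios of these relatives thus had opposite signs. OS9, a lectin that delivers glycoproteins to SEL1L, was at 0.00 [−0.47, 0.48] and 0.44 [0.21, 0.69]. HERPUD1, which organises the ligase complex, was at 0.41 [−0.28, 1.16] and 0.40 [0.05, 0.77], alike in both genotypes. SELENOS, a selenoprotein that recruits the p97 ATPase, was at 127 and 75.5 RPKM in the mutant (0.69 [0.03, 1.41]) and at 119 and 119.5 in wild type.

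Setting mutant against wild type cells asked how the same genes differed by genotype in each treatment. Without erythromycin more of them were higher in the mutant, and with it more were lower. The median over the 35 genes was 0.21 without the drug, with 24 above 0 (68.6%, against 50.0% of tested genes), and −0.14 with it, with 21 below 0 (60.0%, against 50.0%). With the list and the centring both limited to genes averaging at least 20 RPKM (26 of the list), the median with the drug was −0.03. That filter moves the centre as well, so this value is not on the scale of the other ratios. Shares past 1.5-fold were again at or below those of all tested genes. Without the drug 3 genes were at least 1.5-fold higher (8.57%, against 13.3%) and 2 lower (5.71%, against 10.4%). With it 2 were higher (5.71%, against 16.8%) and 3 lower (8.57%, against 11.3%). Counting intervals lay above 0 for 9 (25.7%, against 9.50%) and below for 2 (5.71%, against 9.29%) without the drug. With it they lay above 0 for 3 (8.57%, against 16.1%) and below for 7 (20.0%, against 16.9%).

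These comparisons use the same 4 libraries as the drug comparisons and give no separate evidence. Without erythromycin the mutant over wild type ratio was 0.31 [0.07, 0.54] for HSPA5, 0.39 [0.24, 0.54] for CALR, 0.53 [0.29, 0.77] for PDIA6 and 0.36 [0.18, 0.53] for P4HB. HSP90B1 (0.29 [0.08, 0.50]), PDIA4 (0.35 [0.07, 0.62]), SERPINH1 (0.44 [0.05, 0.82]), XBP1 (0.62 [0.07, 1.17]) and DNAJB9 (1.51 [0.06, 3.17], on 7 and 11 reads) were also higher. By contrast SELENOS (−0.63 [−1.29, −0.04]) and DERL2 (−0.62 [−1.23, −0.06]) were lower. With erythromycin the lower side held HSPA5 (−0.63 [−0.85, −0.41]), CANX (−0.64 [−0.80, −0.49]), PDIA3 (−0.49 [−0.72, −0.27]) and DERL1 (−0.80 [−1.37, −0.29]). CALR (−0.35 [−0.48, −0.22]), SERPINH1 (−0.40 [−0.77, −0.04]) and ATF6 (−0.57 [−1.14, −0.08]) were lower too. On the other side stood EDEM1 at 1.19 [0.49, 2.23], PPIB at 0.21 [0.01, 0.40] and PDIA5 at 0.82 [0.00, 1.82]. Of the 35 genes, 10 were above 0 in both treatments, 7 below in both and 18 on opposite sides. Among all tested genes 29.7% were above 0 in both and 29.7% below. For the drug, 9 were above 0 in both genotypes and 3 below in both (25.3% of tested genes each), and 23 lay on opposite sides. In each case the tested genes outside these shares also lay on opposite sides.

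**Figure D4:**
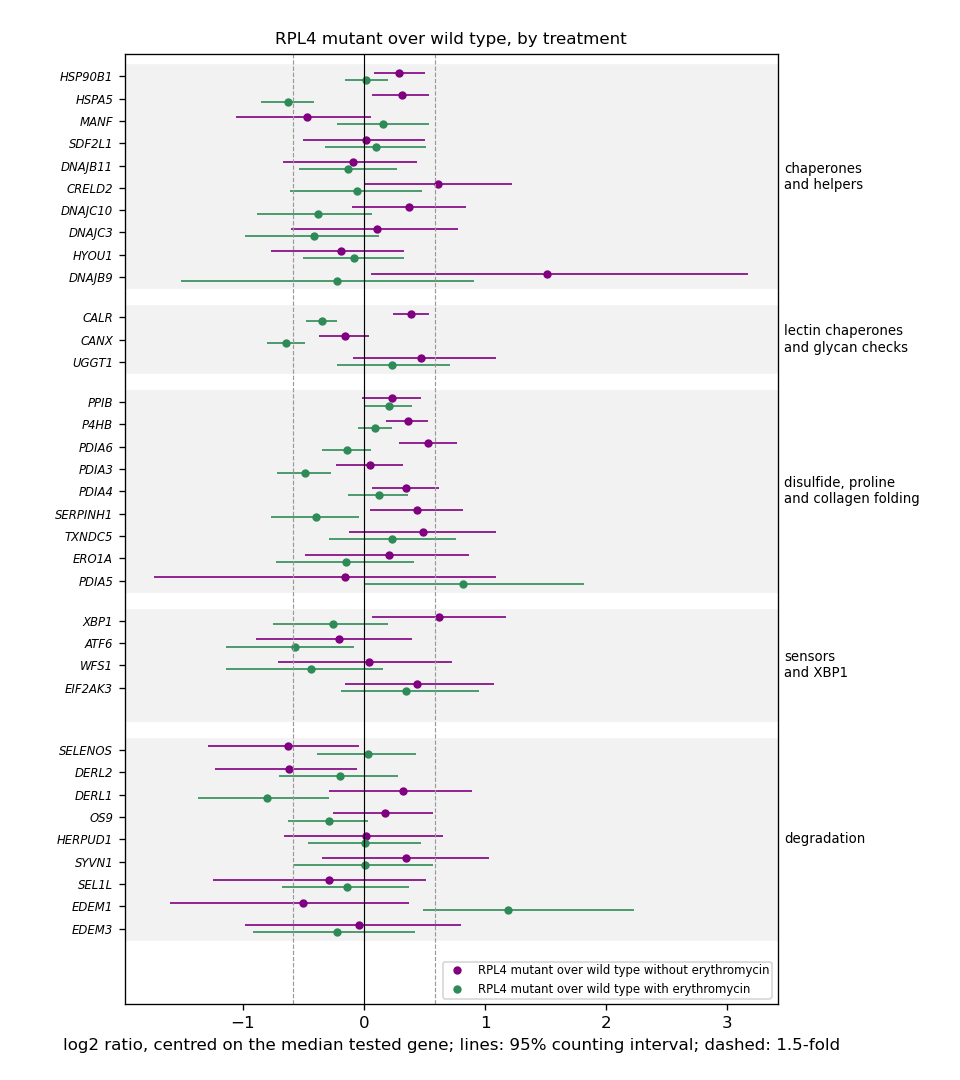
Log2 ratio of the RPL4 mutant over wild type for the 35 tested genes, by role, without erythromycin (purple) and with it (green), with 95% counting intervals and dashed lines at 1.5-fold. HSPA5 and CALR lie above 0 without the drug (0.31 and 0.39) and below 0 with it (−0.63 and −0.35).

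The erythromycin response in the mutant minus that in wild type was below 0 for most of the list. It was below 0 for 26 of 35 genes (74.3%, against 49.7% of tested genes), with a median of −0.25. Its counting interval lay below 0 for 11 (31.4%, against 10.4%), namely HSPA5, DNAJB9, DNAJC10, CALR, CANX, PDIA3, PDIA6, P4HB, SERPINH1, XBP1 and DERL1. It lay above 0 for 2, EDEM1 and MANF (9.18% of tested genes). The difference was −0.91 [−1.23, −0.60] for HSPA5, −0.72 [−0.92, −0.53] for CALR, −0.65 [−0.97, −0.34] for PDIA6 and −0.86 [−1.58, −0.19] for XBP1. By role it was below 0 in 7 of 10 chaperones and helpers (median −0.38), 3 of 3 of the lectin group (−0.46), 8 of 9 of the disulfide, proline and collagen group (−0.25) and 4 of 4 tested sensors (−0.40). In the degradation group it was below 0 in 4 of 9, with a median of 0.01. With 1 library a group this difference cannot be told apart from a deviation of any 1 library.

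**Figure D5:**
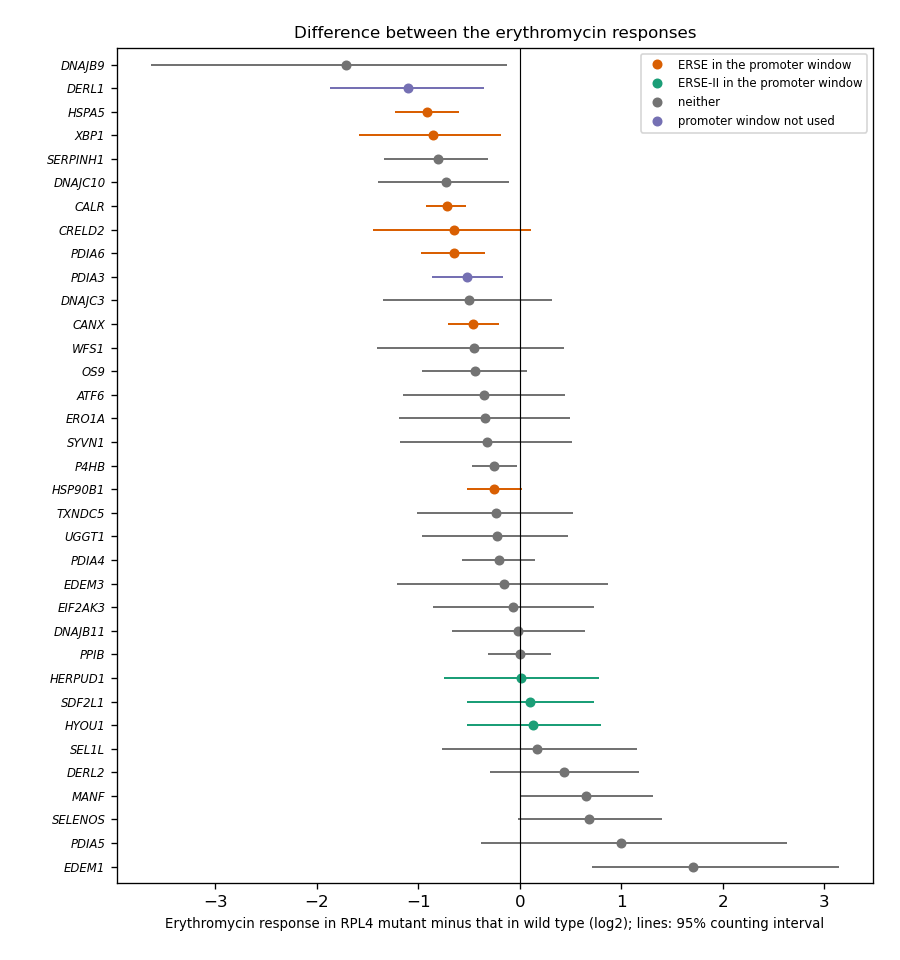
Erythromycin response in the mutant minus that in wild type (log2) for the 35 tested genes in order of size, with 95% counting intervals, coloured by the stress element found in the promoter window. The 7 genes with an ERSE lie between −0.91 and −0.25, and the 3 with an ERSE-II between 0.01 and 0.13.

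Set beside the promoter letters, the 7 genes with an exact ERSE (HSPA5, HSP90B1, CALR, CANX, PDIA6, XBP1 and CRELD2) had a difference below 0 in 7 of 7, with a median of −0.65. The counting interval lay below 0 for 5 of the 7 (10.4% of tested genes). It held 0 for HSP90B1 (−0.25 [−0.52, 0.02]) and CRELD2 (−0.65 [−1.45, 0.11]). Wild type ratios of the 7 ran from 0.11 to 0.54, all above 0. Their mutant ratios ran from −0.57 to 0.08, with CANX the 1 above 0. The 3 genes with ERSE-II (HYOU1, SDF2L1 and HERPUD1) had differences of 0.01 to 0.13. In the 23 tested genes with neither, 17 were below 0, with a median of −0.23 and a range from −1.71 (DNAJB9) to 1.71 (EDEM1). Of these 23, 4 had an interval below 0, among them SERPINH1 (−0.81) and DNAJC10 (−0.73), and 2 had one above 0. PDIA3 (−0.52) and DERL1 (−1.10), with no window, are in none of these groups, and both were below 0. Mean levels ran from 34.6 RPKM (CRELD2) to 554 (CALR) in the 7, and from 8.28 (PDIA5) to 421 (PPIB) in the 23. More reads narrow an interval, so the interval counts of these groups do not compare like with like. The grouping was made after the responses were known and is given as a description.

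Over both arms, 0 of 35 genes passed in limma's additive model of genotype and treatment, exploratory with 1 residual degree of freedom. The model takes the difference between the 2 drug responses as its error. Its drug effect is the mean of the 2 responses, so a gene with opposite responses has a small effect in it. CALR, for example, had a drug effect of 0.01 (SE 0.205). The error is moderated over genes, and PPIB, with like responses, had an SE of 0.192. Not passing therefore says nothing on the difference of responses described above. For erythromycin over none in both genotypes 24 of 9612 tested genes passed at an adjusted p of 0.05, of which 23 rose (0.239%) and 1 fell (0.0104%). Of the 35, only SEL1L had an unadjusted p under 0.05, with a limma estimate of 0.70 (SE 0.32) and an adjusted p of 0.784 by that model. Over all tested genes 6.18% had such an unadjusted p. For the mutant over wild type in both treatments 160 tested genes rose (1.66%) and 27 fell (0.281%), 0 of the 35 among them, and 0 of 35 had an unadjusted p under 0.05, against 12.4% of tested genes. CANX came nearest in that limma fit, at −0.40 (SE 0.216, adjusted p = 0.477).

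A wider set of genes of the same compartment had medians nearer 0, though this was not tested. Of 72 further genes fixed as a wider list, 69 were tested and 0 passed limma in either comparison. The median ratio of erythromycin over none was 0.02 in the mutant, with 35 of 69 above 0, and 0.12 in wild type, with 45 of 69 above 0. The difference between the responses was below 0 for 36 of 69, with a median of −0.02. By the mean erythromycin ratio the highest were DDIT3, FKBP2 and TMX1, and the lowest KDELR3, PPIC and ERLIN2. DDIT3 (CHOP, the transcription factor downstream of PERK) was at 27.8 and 25.7 RPKM in the mutant with and without the drug, against 53.4 and 15.7 in the wild type, with ratios of 0.06 [−1.20, 1.42] and 1.72 [1.13, 2.47]. TMX1, a membrane-bound thioredoxin, was higher in both, at 1.12 [0.62, 1.68] and 0.33 [0.05, 0.61]. FKBP2, a proline isomerase, had 34 and 8 reads in the mutant (1.29 [0.18, 2.64]) and was at 0.21 [−0.20, 0.63] in wild type. KDELR3, a receptor that returns escaped chaperones, was lower in both, at −1.40 [−2.95, −0.09] and −0.88 [−1.93, −0.04], on 8 to 34 reads a library. PPIC was at −0.17 and −0.88, and ERLIN2 at −0.13 and −0.61.

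By the mean of the mutant over wild type ratios, the wider list was led by FKBP10, FKBP7 and DERL3 and ended with VCP, FKBP2 and RNF185. FKBP10, a proline isomerase that acts on collagen, was at 51.8 and 54.9 RPKM in the mutant with and without erythromycin, against 23.7 and 28.7 in the wild type, with ratios of 1.03 [0.64, 1.48] with the drug and 0.94 [0.50, 1.41] without it. VCP, the p97 ATPase that pulls misfolded proteins out of the membrane, was at 118 and 128 RPKM in the mutant, against 224 and 215 in the wild type, with ratios of −0.99 [−1.18, −0.81] and −0.72 [−0.95, −0.51]. For these genes both mutant libraries lay on the same side of both wild type libraries. FKBP7 was at 0.96 with the drug and 0.95 without it on 5 to 12 reads a library, DERL3 at 1.21 and 0.21, RNF185 at −0.85 and −0.44, and FKBP2 at −0.25 and −1.31.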

How the data were processed

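The authors deposited 1 RPKM value per Ensembl transcript and library, listing only values above 0, so an absent transcript was read as 0. Per the submitters' processing notes, cutadapt, STAR and GRCh38 were used. What counted the reads, on which annotation, is not stated there. Symbols, positions and coding lengths came from GENCODE 29. RPKM times coding length with the stop codon gave whole reads, within 0.001, in 99.15% to 99.2% of the transcripts matched to it, which fixed the library totals and thus the depth; all 36 genes had whole reads.

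Ratios were log2(RPKM + 1) differences centred on the median of genes averaging 5 RPKM or more across the libraries. Single-library differences have no replicate check and no p. Intervals are exact binomial ones on the reads of the pair of libraries, and normal ones on the log scale for the difference of responses. limma 3.58.1 (R 4.3.3) was fitted to the same values, centred alike, in an additive model of genotype and treatment with a variance trend and Benjamini-Hochberg adjustment over all tested genes. The fit was tested on simulated counts with Poisson noise alone, with changes put in genes averaging at least 20 RPKM. It recovered 73.0% of 2-fold changes for the drug and 51.0% for the genotype. For 4-fold changes these shares were 100.0% and 99.0%. Changes under 2-fold were not simulated. Alternatives changed the pseudocount, the filter, the scaling and the model; those for the difference of responses, and limma without centring, were chosen after seeing the data. The 36 genes and the lists were chosen with earlier results of these data known. All 36 are named by rule, as are the 3 highest and 3 lowest of the wider list by each mean ratio.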

Additional observations from a re-analysis of the deposited data

Results flagged for a closer look

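Erythromycin over none lay on opposite sides of 0 in the genotypes, each beyond counting error, for HSPA5 (−0.57 in the mutant and 0.35 in wild type), CALR (−0.36 and 0.37) and SERPINH1 (−0.56 and 0.25). The same libraries seen by treatment put the mutant over wild type ratio on opposite sides for HSPA5 (0.31 without the drug and −0.63 with it), CALR (0.39 and −0.35) and SERPINH1 (0.44 and −0.40). The median over the 35 tested genes also changed side, at −0.10 in the mutant and 0.22 in wild type for the drug, and at 0.21 without and −0.14 with the drug for the genotype. With the list and the centring both limited to genes averaging at least 20 RPKM (26 of the list), the last of these medians was −0.03. With 1 library a group these differences were not tested. The share of all tested genes with intervals on opposite sides was not counted. The list also has more reads per gene than the median tested gene, so how unusual these genes are is not known.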

How the results depend on the processing

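No paired analysis was possible because each group has 1 library and no label ties 1 library to another. The signs of all 18 single ratios at or beyond 1.5-fold held under each alternative run on them, 114 values, of which 97 stayed at or beyond 1.5-fold. Limma passed 0 of the genes under each of 8 other settings in either comparison, which does not bear on the difference between the responses. Over all tested genes it passed 0 to 99 for the drug (24 as reported) and 54 to 341 for the genotype (187). The median difference between the responses was −0.18 to −0.33 under 7 alternatives added after seeing the data, with 24 of 35 genes below 0 without centring and 28 of 36 with no filter. Medians of the single comparisons kept their sign under the 7 alternatives. That of the mutant over wild type with erythromycin was −0.03 instead of −0.14 with a mean of at least 20 RPKM, which also moves the centre. Counts past 1.5-fold are small and moved more. With a mean of at least 20 RPKM (26 genes) they were 2 higher for the drug in the mutant, 0 higher and 0 lower for the drug in wild type, 0 lower for the mutant without the drug, and 0 higher and 1 lower for the mutant with it. With a pseudocount of 5 RPKM 1 was higher for the drug in wild type and 1 for the mutant in either treatment. With no filter 4 were lower for the drug in the mutant and 5 for the mutant with the drug. With at least 20 reads expected there was 1 lower for the mutant without the drug, and for the mutant with the drug 0 higher. A common sum gave 0 lower without and 1 lower with the drug for the mutant, and no centring gave 1 lower with it. The filters test fewer genes and centre on those genes alone. For the other settings the cause was not tested. Depth limits the mutant without erythromycin most, with a median of 32 reads a gene.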

Other observations

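Some genes of the wider list are commonly placed in the PERK arm. They were named here after a look at their values, and whether PERK moved them was not tested. PPP1R15A (GADD34, the phosphatase subunit that reverses PERK) was at 29.3 and 22.1 RPKM in the mutant with and without erythromycin (0.34 [−0.32, 1.07]). In the wild type it was at 31.3 and 14.7 (1.06 [0.73, 1.5]). TRIB3, a pseudokinase induced by ATF4 and DDIT3, was at 18.3 and 25.7 RPKM in the mutant (−0.53 [−1.53, 0.45]), against 37.8 and 21.8 in the wild type (0.78 [0.37, 1.25]). ATF4 itself was higher with the drug in both genotypes, at 237 and 172 RPKM in the mutant (0.41 [0.08, 0.75]), against 208 and 166 in the wild type (0.34 [0.16, 0.51]). Other genes of that arm were not higher alike. ASNS, asparagine synthetase, had ratios of 0.02 in the mutant and −0.33 in wild type. CHAC1, which degrades glutathione, was at 0.03 and −0.13, and PPP1R15B, the constitutive relative of PPP1R15A, at −0.01 and 0.08.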
